A study of Arabidopsis thaliana with 6 samples.

Results

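SEN1, ASN1, DIN2 and DIN10 are 4 dark-inducible genes of Arabidopsis thaliana, known for transcripts that accumulate when leaves are kept in darkness. Their 4 probe sets were examined among the 22746 measured on ATH1 arrays, of which 13647 passed a filter on dim signals. SEN1 (AT4G35770, also DIN1) was read on probe set 253161_at and ASN1 (AT3G47340, also DIN6) on 252415_at. DIN2 (AT3G60140) was read on 251428_at and DIN10 (AT5G20250) on 246114_at. The assignment of probe sets to genes came with the list of members. The probe annotation used here lists 0 of the 4 probe sets and therefore names no other locus for them, and the RefSeq gene table carries all 4 loci under these symbols. SEN1, ASN1 and DIN10 passed the filter and DIN2 did not. The genes were chosen by name with their signals on these same arrays already known, so their differences are a description, given without p-values. The fit over all probe sets that passed the filter also covered SEN1, ASN1 and DIN10. Nothing is read from whether that fit called them.

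There were 3 saliva arrays from plants that received saliva of the green peach aphid Myzus persicae, and 3 control arrays. All 6 held total RNA of wild-type Col-0 plants, 3 weeks old, grown on soil and used before flowering. The labels do not say which tissue was taken, how or for how long saliva was applied, what the control plants received, or whether replicates came from separate plants. The spread between replicates may therefore be technical.

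Dark-inducible genes are part of the response of plant cells to a shortage of sugar. In darkness the SnRK1 protein kinase becomes active and, partly through bZIP transcription factors, turns on genes that release carbon and nitrogen from stored compounds. Sucrose or glucose represses the same genes. Aphids draw sugar from the phloem, which is the tissue that carries it out of the leaf. The arrays here are labelled with saliva and not with feeding, and a loss of sugar was not tested.

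The arrays had been scaled by the authors to a common trimmed mean, which was 100.01 on each, and their medians lay between 32.4 and 33.4. Pearson correlations between arrays ran from 0.975 to 0.987 over the probe sets tested. Saliva replicate 3 had the lowest mean correlation with its own group, at 0.980, against 0.983 to 0.986 for the other 5 arrays, and results that rest on it are also given without it. The number of arrays limits the precision. In the limma fit across all 13647 probe sets, 6 were called higher with saliva (0.0440%) and 2 lower (0.0147%) at an adjusted p under 0.05. Under quantile normalization the calls were 1 higher and 0 lower. Leaving out any array moved this total, to 14, 1 and 2 without saliva replicate 1, 2 and 3, and to 1, 2 and 1 without control replicate 1, 2 and 3.

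SEN1 encodes a small protein with a rhodanese domain, the fold of sulfurtransferases, and is a classic marker of darkness, senescence and sugar shortage. SEN1 gave signals of 435, 501 and 614 on saliva arrays 1, 2 and 3, against 164, 174 and 146 on control arrays 1, 2 and 3. The groups did not overlap, and the lowest saliva array lay well above the highest control array. The mean signal was 517 ± 90.2 with saliva and 161 ± 14.3 in controls (SD, n = 3 each), a ratio of 3.20. Each of the 9 ratios of a saliva over a control array was at least 2, from 2.50 to 4.21. On the log2(signal + 16) scale SEN1 was higher with saliva by 1.58 ± 0.13 (SE), rank 2 of 13647. Without saliva replicate 3 the difference was 1.45.

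ASN1 encodes glutamine-dependent asparagine synthetase, which moves amide nitrogen from glutamine to aspartate. Its product, asparagine, is a nitrogen-rich compound for storage and transport when carbon is scarce. ASN1 gave 67.7, 63.96 and 59.1 on saliva arrays 1, 2 and 3, against 19.3, 30.5 and 30.9 on control arrays 1, 2 and 3. Again the groups did not overlap. The saliva arrays lay close together, and control replicate 1 stood below the other controls. The mean signal was 63.6 ± 4.33 with saliva and 26.9 ± 6.56 in controls (SD, n = 3 each), a ratio of 2.36, with single ratios from 1.91 to 3.50. On the log2(signal + 16) scale the difference was 0.90 ± 0.14 (SE), rank 22 of 13647, and 0.77 without control replicate 1. ASN1 was of middling brightness, between percentiles 42.1 and 64.2 of all probe sets on the 6 arrays. The offset set the size of its difference, which was 1.24 with an offset of 1 and 0.49 with an offset of 64.

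**Figure D1:**
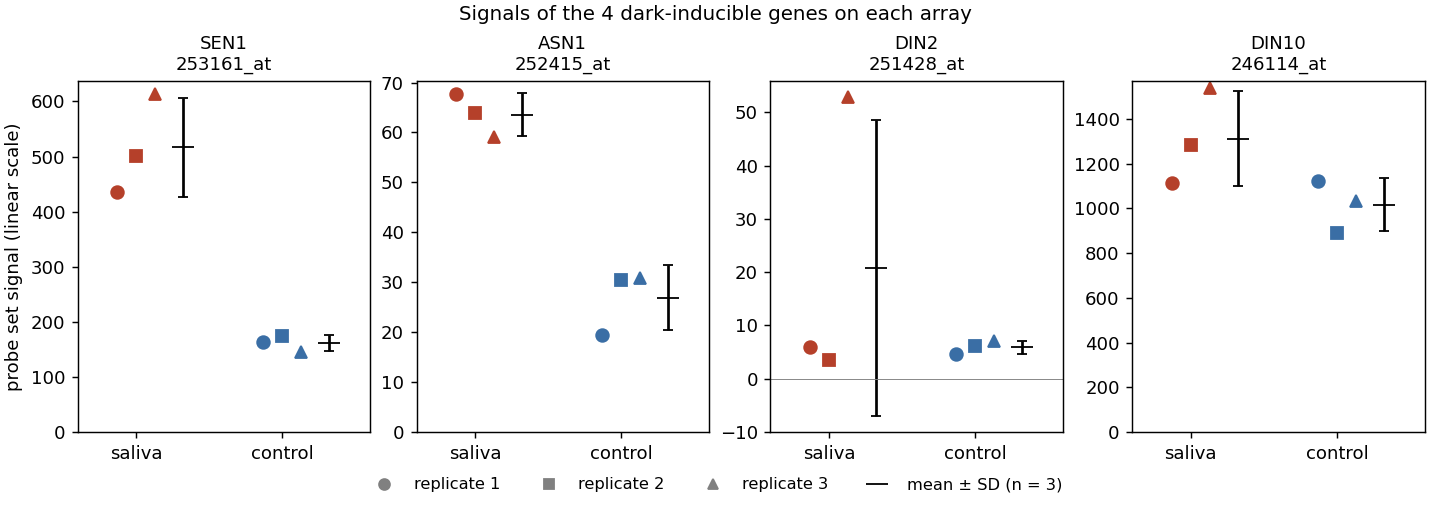
Probe set signal on a linear scale (a separate vertical axis for each gene) on each saliva array and each control array, with the marker shape giving the replicate number and black bars the mean ± SD of 3 arrays. The saliva points of SEN1 and ASN1 lie above all control points, those of DIN10 overlap the controls, and DIN2 has a single high point, at 52.9 on saliva replicate 3.

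DIN10 encodes a protein annotated as raffinose synthase 6, of the family of enzymes that make or break the galactose-containing sugars of the raffinose series. DIN10 was among the bright probe sets and gave 1114, 1282 and 1537 on saliva arrays 1, 2 and 3, against 1124, 890 and 1033 on control arrays 1, 2 and 3. The groups overlapped, because saliva replicate 1 lay just under control replicate 1. Of the 9 ratios 8 were above 1, in a range of 0.991 to 1.73, and 0 reached 2. The mean signal was 1311 ± 213 with saliva and 1016 ± 118 in controls (SD, n = 3 each), a ratio of 1.29. The difference was 0.36 ± 0.13 (SE) on the log2(signal + 16) scale, and 3.15% of the probe sets tested had a larger positive difference. It was 0.24 without saliva replicate 3 and 0.27 without control replicate 2.

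DIN2 encodes the beta-glucosidase BGLU30, an enzyme that releases glucose from glycosides. DIN2 gave 6.01, 3.48 and 52.9 on saliva arrays 1, 2 and 3, against 4.59, 6.13 and 7.01 on control arrays 1, 2 and 3. Saliva replicate 3 stood apart from the other 5 arrays, which were all dim and overlapped. The group medians were 6.01 with saliva and 6.13 in controls. The mean difference of 0.50 ± 0.42 (SE) on the log2(signal + 16) scale rested on that array, and was -0.080 without it. DIN2 did not pass the filter on dim signals, and whether its signal on the other 5 arrays exceeded background was not tested. On saliva replicate 3 the 3-prime over 5-prime log2 ratio of the Affymetrix control gene Ubq was 1.63, against 0.90 and 1.15 on saliva replicates 1 and 2 and 1.31 to 1.41 in controls. That of GAPDH was 0.44, within the range of the other arrays. Their part in the DIN2 signal was not tested.

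SEN1 and ASN1 were among the 6 probe sets called higher (0.0440% of those tested), and SEN1 among the 13 (0.0953%) with a difference of at least 1 on the log2 scale. Groups without overlap, saliva above control, occurred in SEN1 and ASN1 and in 7.80% of all probe sets tested. SEN1 stayed among the probe sets called in 14 of 14 alternative settings and in 6 of 6 without 1 array. ASN1 stayed among them in 2 of the 13 alternatives that tested it and in 0 of 6 without 1 array. It did not pass the filter that left out the lowest 60%. The choice of the genes used this contrast, so nothing is read from these counts.

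**Figure D2:**
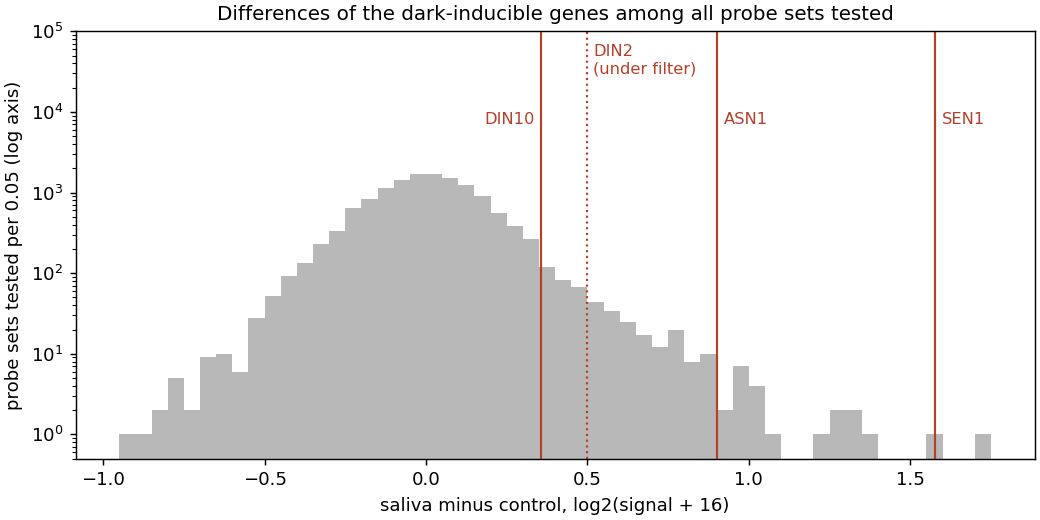
Number of probe sets tested (log axis, bins of 0.05) by their difference of saliva minus control on the log2(signal + 16) scale, with vertical lines at the 4 genes. SEN1 at 1.58 and ASN1 at 0.90 lie in the thin upper tail, DIN10 at 0.36 on the shoulder, and the dotted line marks DIN2, which was under the filter and is not counted in the bars.

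The genes did not share one order across arrays. Within the saliva group SEN1, DIN10 and DIN2 were highest on replicate 3, whereas ASN1 was lowest there and highest on replicate 1. Within the controls SEN1 was lowest on replicate 3, ASN1 and DIN2 on replicate 1, and DIN10 on replicate 2. SEN1 varied more among saliva arrays than among controls, with an SD of 0.24 against 0.12 on the log2(signal + 16) scale. ASN1 did the reverse, with an SD of 0.079 among saliva arrays and 0.23 among controls. Among all probe sets tested, 82.5% had a saliva SD no larger than that of SEN1 and 20.7% one no larger than that of ASN1. For DIN10 the SD was 0.23 among saliva arrays and 0.17 among controls. With 3 arrays a group these SDs are themselves imprecise, and the difference between them was not tested.

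**Figure D3:**
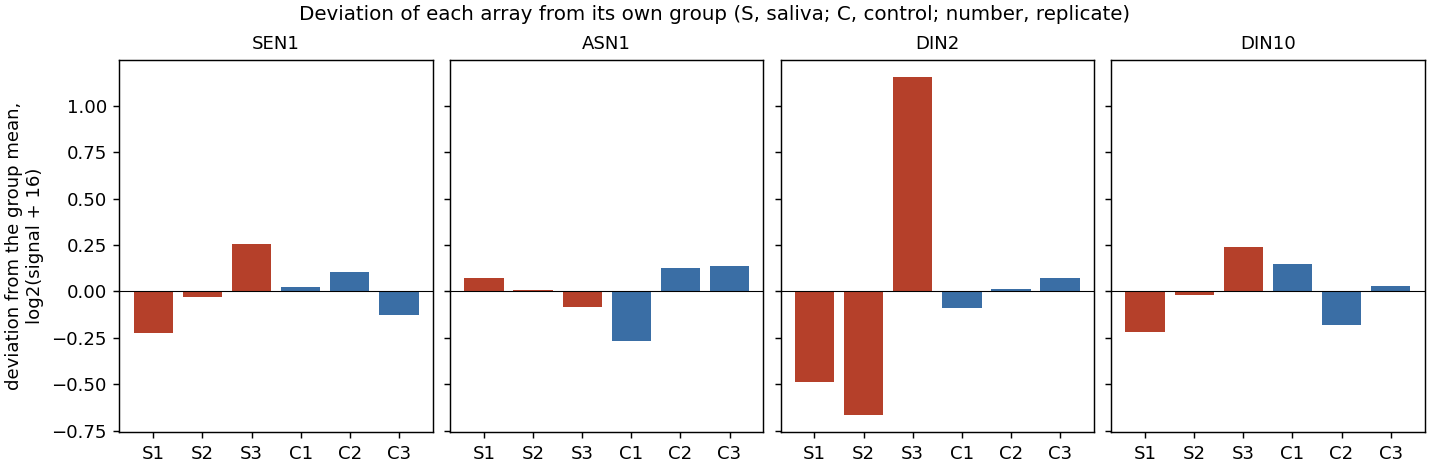
Deviation of each array from the mean of its own group on the log2(signal + 16) scale, for saliva arrays (S) and control arrays (C) by replicate number. SEN1, DIN2 and DIN10 have their tallest saliva bar on replicate 3, where ASN1 has its lowest.

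The differences of SEN1, ASN1 and DIN10 stayed positive in each of 14 alternative settings, including the removal of each array in turn, with the difference of ASN1 taken without the filter where it did not pass it. SEN1 ran from 1.36 to 1.69, ASN1 from 0.49 to 1.24 and DIN10 from 0.24 to 0.47. DIN2 was positive in 13 of the 14 and ran from -0.080 to 0.83.

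**Figure D4:**
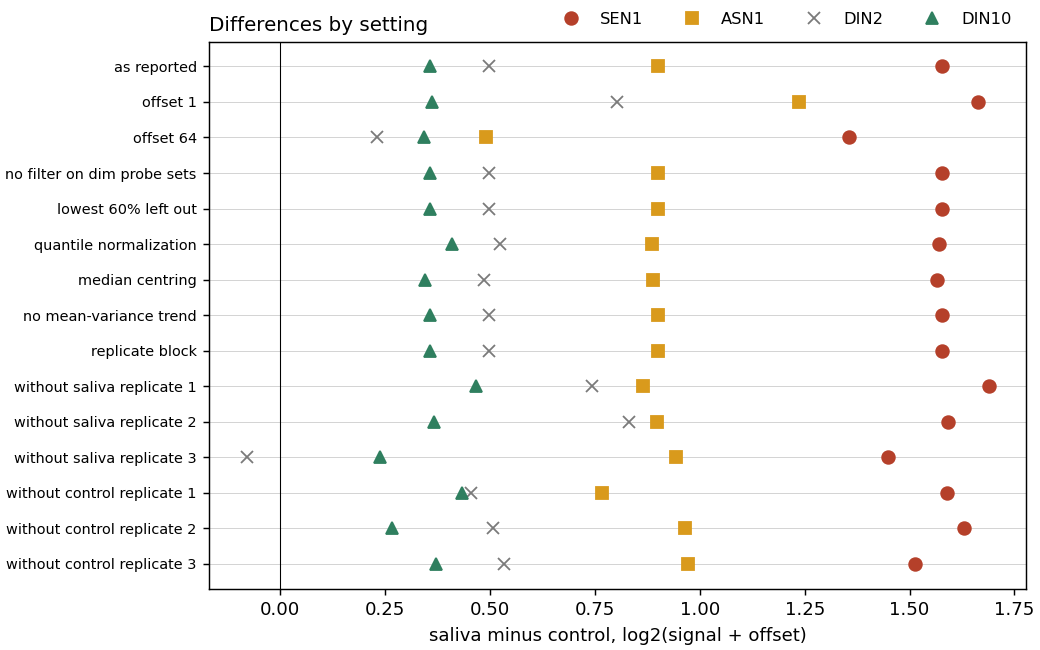
Difference of saliva minus control for each gene (horizontal axis, log2 of signal plus offset) under the reported setting and each of 14 alternatives (rows). SEN1 stays between 1.36 and 1.69, ASN1 moves with the offset, and DIN2 crosses 0 without saliva replicate 3.

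Other genes of the same responses were taken from 12 lists with 170 loci, of which 51 were named on the array and 35 passed the filter. The lists were written with earlier results of these data known. In limma 0 of the 35 passed an adjusted p of 0.05 over all probe sets tested, in the reported setting and in the 14 alternatives. The lowest adjusted p over all of them was 0.107. At an unadjusted p under 0.05 there were 12, 5 higher and 7 lower, which is 34.3% of the 35 against 10.2% of all probe sets tested. Of the 35 differences 19 were positive (54.3%, against 51.5% of all), with a median of 0.047 against 0.0057 over all. The sign changed in at least 1 alternative for 6 of them, which were ATL8, ETFQO, ASPGB1, BGLU42, WRKY22 and RCA. The other loci were not analysed by name, and the lists of further DIN genes and of light and dark signalling had 0 members named here.

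Among genes that SnRK1 or starvation is known to induce, 6 of 20 were tested, with 6 positive and 0 negative differences and a median of 0.16. AT3G15450 (SEN5), a starvation marker of the aluminium-induced protein family, gave 1161, 1546 and 1520 with saliva, against 1060, 942 and 1231 in controls. Its groups overlapped, and it differed by 0.38 ± 0.13 (SE, adjusted p = 0.312). IVD, isovaleryl-CoA dehydrogenase of leucine breakdown, gave 102, 96.3 and 98.8 with saliva, against 78.8, 77.9 and 87.8 in controls. These groups did not overlap, and IVD differed by 0.24 ± 0.11 (SE, adjusted p = 0.488). MCCA and MCCB, the subunits of methylcrotonyl-CoA carboxylase in the same route, differed by 0.17 and 0.15. The groups overlapped in MCCA but not in MCCB, where the lowest saliva signal was 169.7 and the highest control signal 169.2. Saliva above control without overlap thus occurred in 2 of these 6 genes and in 7.80% of all probe sets tested. ETFQO, which passes electrons from that route to the respiratory chain, differed by 0.036, and the ubiquitin ligase gene ATL8 by 0.065. The last 2 changed sign in at least 1 alternative.

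Among the kinase and sugar sensing genes, AKINBETA1, a regulatory beta subunit of SnRK1, gave 283, 322 and 237 with saliva, against 212, 196 and 229 in controls. The groups did not overlap, and it differed by 0.37 ± 0.12 (SE, adjusted p = 0.295). The genes of the other beta subunits, AT4G16360 and AT2G28060, differed by -0.11 and -0.19, and their groups overlapped. Of the bZIP factors that act with SnRK1, BZIP53 differed by 0.12 and bZIP44 by 0.16, with adjusted p of 0.732 and 0.816. The groups overlapped in bZIP44 but not in BZIP53, where saliva lay above control. Asparagine breakdown was read through the asparaginase genes ASPGA1 and ASPGB1, which differed by 0.061 and -0.062. The groups overlapped in both genes, and ASPGB1 changed sign in at least 1 alternative. ASN2 and ASN3, the other asparagine synthetase genes, were not analysed by name.

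**Figure D5:**
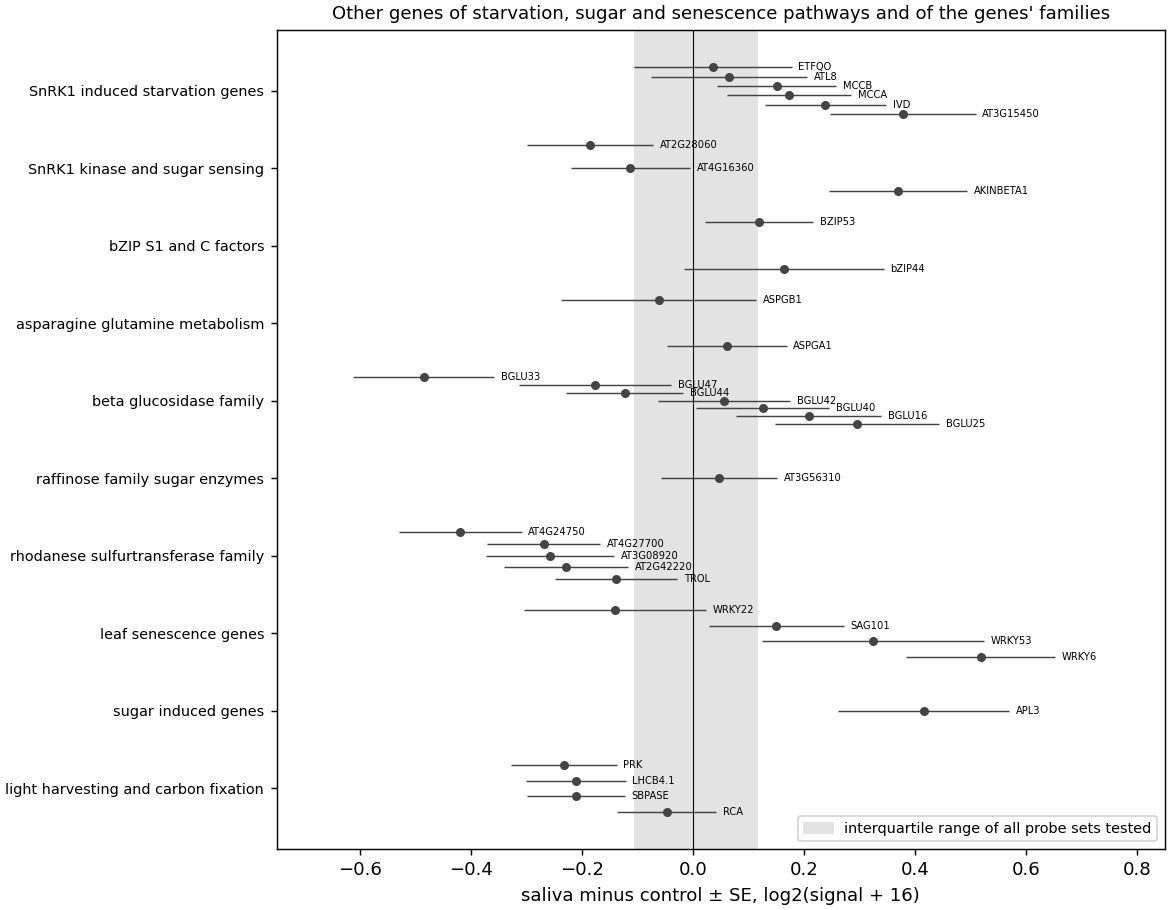
Difference of saliva minus control with its SE on the log2(signal + 16) scale for the 35 tested genes, grouped by list (rows), with a grey band for the interquartile range of all probe sets tested. The rhodanese family and the light harvesting and carbon fixation genes lie left of 0 (RCA with another sign in some settings), the starvation genes right of 0 (ATL8 and ETFQO likewise), and 0 of the 35 passed the threshold.

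Of the rhodanese family, to which SEN1 belongs, 5 of 10 genes were tested and 0 passed the threshold. Their differences were 0 positive and 5 negative, with a median of -0.26. AT4G24750 gave 328, 279 and 321 with saliva, against 379, 441 and 436 in controls. Its saliva arrays lay below every control array, and it differed by -0.42 ± 0.11 (SE, adjusted p = 0.176). AT4G27700 and AT3G08920 also had saliva below control without overlap, at -0.27 and -0.26. Saliva below control without overlap thus occurred in 3 of these 5 genes and in 7.72% of all probe sets tested. AT2G42220 differed by -0.23 and TROL, a rhodanese-like protein of the thylakoid membrane, by -0.14, with overlap. STR18 and AT2G17850 were under the filter, with mean signals of 11.7 and 5.93 with saliva and 12.2 and 5.51 in controls.

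Of the beta-glucosidase family of DIN2, 18 of 26 genes were named and 7 tested, with 4 positive and 3 negative differences and a median of 0.057. BGLU16, the neighbour of DIN2 on the chromosome, gave 244, 279 and 349 with saliva, against 247, 229 and 267 in controls. It differed by 0.21 ± 0.13 (SE, adjusted p = 0.629), and its groups overlapped. BGLU33 had saliva below control without overlap, at 110, 78.4 and 89.1 with saliva, against 137, 142 and 126 in controls. It differed by -0.49 ± 0.13 (SE, adjusted p = 0.173). BGLU25, BGLU40 and BGLU42 differed by 0.30, 0.13 and 0.057, and BGLU44 and BGLU47 by -0.12 and -0.18, with saliva below control without overlap in BGLU47. The remaining 11 were under the filter. Among those BGLU45, like DIN2, was far highest on saliva replicate 3, with 11.02, 13.5 and 56.9 with saliva, against 7.02, 5.04 and 7.08 in controls. Unlike those of DIN2, its groups did not overlap. Of the raffinose family enzymes 1 of 11 was tested, the alpha-galactosidase-like gene AT3G56310, at 0.047.

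Senescence and light genes complete the setting in which SEN1 is usually read. WRKY6, a transcription factor of senescence, gave 55.1, 51.0 and 56.8 with saliva, against 29.8, 28.8 and 41.5 in controls. Its groups did not overlap, and it differed by 0.52 ± 0.13 (SE, adjusted p = 0.173). WRKY53 and SAG101 differed by 0.33 and 0.15 and WRKY22 by -0.14, all with overlap. Of 10 genes that sugars induce, 3 were named and 1 was tested. This was APL3, a starch synthesis gene, with 116, 74.2 and 76.8 with saliva, against 69.9, 54.0 and 61.5 in controls. It differed by 0.42 ± 0.15 (SE, adjusted p = 0.352), without overlap of the groups. APL4 and DFR were under the filter, and their groups overlapped. Their mean signals were 14.0 and 15.6 with saliva and 14.9 and 7.58 in controls.

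The 4 tested genes of light harvesting and carbon fixation were negative, with a median of -0.21, although RCA changed sign in at least 1 alternative. PRK, SBPASE and LHCB4.1 had saliva below control without overlap, at -0.23, -0.21 and -0.21, with adjusted p between 0.418 and 0.445, so that 3 of 4 had this order, against 7.72% of all probe sets tested. RCA, the activase of the carbon-fixing enzyme Rubisco, differed by -0.048 with overlap. The mean signals of LHCB4.1 were 5945 with saliva and 6873 in controls. The labels name no tissue, so markers of root and guard cells were read beside SEN1 and ASN1. EXPA7, EXPA18 and PYK10, which mark roots, did not pass the filter, with single signals up to 11.2 with saliva and 8.83 in controls. The guard cell gene FMA differed by -0.00035, and was the only 1 of 4 guard cell markers named on the array. The root marker COBL9 and the guard cell markers KAT1, MYB60 and HT1 were not analysed by name. No flower or phloem marker was analysed by name. In bulk RNA, fewer cells of a type and less RNA per cell cannot be told apart.

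Likeness was measured by Pearson's r over the 6 arrays over the 7339 tested probe sets with 1 gene name and is given as a description. Any gene whose signal stepped between the groups scores high, and r exceeded 0.9 with SEN1 in 98 probe sets, with ASN1 in 77 and with DIN10 in 95. On the opposite side, r was under minus 0.9 with SEN1 in 114, with ASN1 in 72 and with DIN10 in 92. The genes most like SEN1 were PAHX, annotated as phytanoyl-CoA 2-hydroxylase, AT1G03520 and AT4G38900 (bZIP29), at r = 0.983, 0.983 and 0.982. Their own differences were 0.20, 0.25 and 0.22. PAHX, for example, gave 505, 504 and 536 with saliva, against 453, 443 and 441 in controls. Those most like ASN1 were AT4G27350 (r = 0.990), AT3G13672 (SINA2, r = 0.981) and AT5G59210 (r = 0.980), with differences of 0.35, 0.56 and 0.28. AT3G13672 was dim, with 24.3, 24.2 and 23.6 with saliva, against 10.03, 11.98 and 11.4 in controls. Its control mean of 11.1 lay under the signal at the cutoff of the filter, 16.8, so it passed only through its saliva arrays. Those most like DIN10 were AT4G03450 (r = 0.990), AT2G28200 (r = 0.980) and AT3G12040 (r = 0.979), with differences of 0.21, 0.67 and 0.21. AT2G28200 was dim, with 21.1, 26.6 and 45.9 with saliva, against 19.8, 8.71 and 11.3 in controls. Its control mean of 13.3 also lay under the signal at the cutoff, so it too passed only through its saliva arrays.

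With each of SEN1, ASN1 and DIN10 set to mean 0 and SD 1 and then averaged, the nearest genes were AT1G23140, AT5G57655, cwINV6, AT1G62510, AT4G21580 and PAHX, with r from 0.983 to 0.990. cwINV6, named as a cell wall invertase and annotated as a fructan exohydrolase, gave 39.9, 38.7 and 46.6 with saliva, against 28.1, 26.8 and 27.5 in controls. It differed by 0.41 ± 0.13 (SE, adjusted p = 0.244). AT1G62510 rose by 0.85 ± 0.13 (SE, adjusted p = 0.0496), and gave 135, 136 and 177 with saliva, against 73.9, 67.0 and 85.8 in controls. The genes most opposite were AT2G41950, AT2G38970, AT1G06830 and AT1G70420, with r from -0.994 to -0.986. Of these AT1G06830, a gene of the glutaredoxin family, fell by 0.76 (SE 0.12, adjusted p = 0.0496). It gave 97.2, 82.2 and 76.4 with saliva, against 140, 169 and 157 in controls. Without 1 array in turn, AT1G62510 was called in 0 of 6 fits and AT1G06830 in 1 of 6, and over all 14 alternatives in 2 and 3.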

How the data were processed

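The deposited values were 1 intensity per probe set and array, made by the authors from scanned ATH1 arrays. Per the submitters' processing notes MAS5, GCOS and limma were used, each in a role and version not given in the sources used here. Of 22810 features, 64 control features were left out. Values were taken as log2(signal + 16), and the 40% with the lowest mean were left out, so that 13647 of 22746 were tested, down to a mean log2 of 5.04. Saliva was compared with control in limma 3.58.1 (R 4.3.3, lmFit and eBayes with trend, two-sided), with Benjamini-Hochberg adjusted p and a threshold of 0.05. The procedure was tested on simulated data. ± is the SE of a difference unless SD is stated, and p-values measure only the spread between these arrays.

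The platform annotation gave 1 gene for 13513 probe sets, several for 503 and none for 8730, and 99.4% of single-gene identifiers were found in the RefSeq table (TAIR10.1). The members and lists were chosen with earlier results of these data known. Genes named were the 4 members, the tested list genes, the 3 genes most alike each tested member, and the 6 nearest and 4 most opposite to the members' mean, with the brightest probe set per gene. Further genes were named after their values were seen. Alternatives varied the offset, filter, normalization, variance trend and replicate block, and left out each array. Promoter and protein sequences were not analysed here.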

Additional observations from a re-analysis of the deposited data

How the results depend on the processing

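The direction of SEN1, ASN1 and DIN10 was the same in all 14 alternatives. Values that moved by more than the spread between replicates were ASN1, at 1.24 when the offset was 1 and 0.49 when it was 64, and SEN1, at 1.36 when it was 64. Leaving out 1 array gave 1.45 to 1.69 for SEN1, 0.77 to 0.97 for ASN1, 0.24 to 0.47 for DIN10 and -0.080 to 0.83 for DIN2. The number of probe sets called was 8. It was 2 at either other offset (1 and 64), 2 with the lowest 60% left out, 1 with no filter, 1 after quantile normalization and 1 with no variance trend. Without 1 array it ran from 1 to 14. The cause of these changes was not tested. The list genes gave 0 calls in every setting. Deviations from the group mean had correlations of -0.059, 0.12 and 0.15 between same-numbered arrays. Those between differently numbered saliva and control arrays were -0.17 to 0.089. Of the 6 arrays, 4 correlated best with their own number. Deviations cancel within each group of 3, so these correlations and this count are not independent of each other. The reported fit did not pair the arrays, and whether the numbers pair them is not known. With the replicate block 29 probe sets were called, 22 higher and 7 lower, all 8 of the reported ones among them. Groups of 3 arrays are too small for a check of single outlying values.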

Other observations

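Saliva replicate 3 held a small set of genes far above the other 5 arrays, and DIN2 was one of them. In that array 31 of 22746 probe sets lay at least 1 above all others on the log2(signal + 16) scale, against 0 to 2 in each other array. Counting DIN2 itself, 7 lay at least as far above as DIN2. The genes below were picked after their values were seen. OSM34, an osmotin-like protein of the pathogenesis-related families, gave 0.838, 5.47 and 56.4 with saliva, against 1.104, 4.66 and 1.94 in controls. JRG21, a jasmonate-regulated gene, gave 48.5, 59.4 and 185 with saliva, against 43.4, 33.4 and 44.8 in controls. PRX52, a peroxidase, gave 31.2, 29.0 and 120 with saliva, against 15.0, 15.6 and 35.2 in controls. AT3G22620 reached 189 and AT5G39520 reached 90.5 on saliva replicate 3. The probe set with the largest mean difference, unnamed here, gave 19.8, 8.70 and 407 with saliva, against 1.45, 3.40 and 15.4 in controls. It was also highest on that array.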
